A study of Homo sapiens with 14 samples.

Results

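The genes described here are 41 antiviral effectors that cells switch on in response to interferon, the secreted alarm protein of viral infection. They were taken from a list of gene names that was drawn up with earlier results of these data known, though no measured value entered the rule, and the sensors of foreign nucleic acid, the OAS enzymes, the GBP proteins and the IRF and STAT factors were kept apart from them. Each of the 41 matched exactly 1 of the 62757 genes counted in every library, by its symbol. Messenger RNA was counted in 14 libraries of total RNA from human ovarian cancer cell lines, which form 7 groups of 2 libraries. The sh1 and sh2 groups are OVCAR3-DDP cells carrying 1 of 2 short hairpin RNAs against ADAR1, and the shNC group is the same cells with a hairpin used here as the control. Further groups are OVCAR3-DDP and A2780-DDP, the cisplatin-resistant derivatives of OVCAR3 and A2780, and the parental OVCAR3 and A2780 cells, labelled WT. DDP is an abbreviation of cisplatin, and every hairpin group, the control included, carries the resistant label. The labels name no interferon treatment, drug dose, vector or clone. The study asked how RNA editing bears on cisplatin resistance. Nothing in the labels says that the 2 libraries of a group came from separate cultures, and the p-values then reflect only how these samples spread, which may be technical.

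Interferons of type I and type III bind receptors at the cell surface and, through the kinases JAK1 and TYK2, activate a complex of transcription factors that includes IRF9. That complex binds the interferon-stimulated response element (ISRE) in the promoters of effector genes, while the response to interferon gamma uses another element, the interferon gamma activated site (GAS). Some effectors, ISG15, IFIT2 and RSAD2 among them, can also be switched on directly by IRF3 without interferon. ADAR1, the product of the gene ADAR, is an enzyme that edits double-stranded RNA by turning adenosine into inosine. It is known for keeping the cell's own double-stranded RNA from being read as viral by the sensors MDA5 (gene IFIH1) and PKR (gene EIF2AK2).

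The promoters of 8 effectors are shown because they hold the letters that interferon factors are known to bind. ISG15 was the most abundant effector per length in the hairpin groups. The sentences on hairpins below turn on RSAD2, DTX3L, PARP14 and SAMD9, which were higher with either ADAR1 hairpin, and on IFITM1, LGALS3BP and BST2, which were lower. Each run reads 5′ to 3′ on the gene's strand, from 150 bases before the RefSeq start of transcription to 10 bases after it, in GRCh38.p14. The windows are chr1:1013347-1013506, plus strand for ISG15, chr2:6877627-6877786, plus strand for RSAD2, chr3:122564188-122564347, plus strand for DTX3L and chr3:122680689-122680848, plus strand for PARP14. The other windows are chr7:93117970-93118129, minus strand for SAMD9, chr11:313890-314049, plus strand for IFITM1, chr17:78979914-78980073, minus strand for LGALS3BP and chr19:17405621-17405780, minus strand for BST2. Capitals mark every match, on either strand, to the ISRE core, which is GAAA, then any 2 bases, then GAAA, or to the GAS letters TTCNNNGAA.
ISG15: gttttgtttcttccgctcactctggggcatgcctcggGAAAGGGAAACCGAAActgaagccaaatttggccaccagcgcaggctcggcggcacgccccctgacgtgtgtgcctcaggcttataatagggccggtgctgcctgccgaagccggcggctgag
RSAD2: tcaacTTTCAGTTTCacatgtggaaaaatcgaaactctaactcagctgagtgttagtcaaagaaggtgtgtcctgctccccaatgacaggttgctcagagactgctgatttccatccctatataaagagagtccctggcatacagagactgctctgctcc
DTX3L: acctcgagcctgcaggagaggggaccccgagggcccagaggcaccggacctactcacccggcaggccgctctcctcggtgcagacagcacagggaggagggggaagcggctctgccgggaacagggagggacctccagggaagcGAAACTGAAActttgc
PARP14: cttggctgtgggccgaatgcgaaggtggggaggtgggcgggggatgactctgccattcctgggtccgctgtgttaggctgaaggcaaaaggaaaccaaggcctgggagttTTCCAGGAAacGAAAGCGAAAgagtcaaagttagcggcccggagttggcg
SAMD9: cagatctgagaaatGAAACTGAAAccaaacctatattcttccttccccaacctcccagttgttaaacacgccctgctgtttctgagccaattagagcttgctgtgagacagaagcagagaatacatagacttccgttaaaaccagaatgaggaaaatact
IFITM1: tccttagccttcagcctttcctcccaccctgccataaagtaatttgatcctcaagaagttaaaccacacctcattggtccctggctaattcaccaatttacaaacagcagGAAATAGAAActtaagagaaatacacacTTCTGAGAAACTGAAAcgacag
LGALS3BP: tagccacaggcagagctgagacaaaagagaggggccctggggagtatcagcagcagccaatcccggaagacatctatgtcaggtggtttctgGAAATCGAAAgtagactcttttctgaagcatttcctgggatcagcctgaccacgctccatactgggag
BST2: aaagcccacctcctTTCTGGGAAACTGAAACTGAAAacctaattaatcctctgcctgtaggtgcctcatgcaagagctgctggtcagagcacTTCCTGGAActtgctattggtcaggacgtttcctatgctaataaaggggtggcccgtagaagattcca

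RefSeq promoters were at hand for 35 of the 41 effectors, as windows of 250 bases before to 50 bases after each start. An ISRE core stood in at least 1 window of 25 of these 35 (71.4%), against 1195 of the 27303 genes with a window (4.38%) and 1243 of all 34794 windows (3.57%). The 10 with no ISRE match were CMPK2, HERC6, IFI16, IFI35, SAMD9L, SAMHD1, SP110, TRIM25, UBE2L6 and XAF1, which says only that these letters are not in these windows. In 14 effectors 1 window held several ISRE matches, as the ISG15 and BST2 sequences show. A GAS match stood in 10 of 35 (28.6%), against 9.38% of all genes with a window, and in 5 of these 10, among them IFITM1 and BST2, it overlapped an ISRE match. DTX3L and PARP9 stand head to head on chromosome 3, and their windows share 137 bases. RSAD2 and CMPK2 lie head to head on chromosome 2, where an upstream start of RSAD2 shares 165 bases of window with CMPK2. Altogether 20 of the 41 lie in 8 clusters of neighbours, such as IFIT1, IFIT2, IFIT3 and IFIT5 on chromosome 10 (89283694 to 89421001, GRCh38, GENCODE 29). In ISG15 the ISRE matches begin 113 and 107 bases before the start and overlap each other. The matches are a description of sequence and show no binding.

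Counts assigned to genes ran from 20428538 to 23746370 in the 6 hairpin libraries and from 31195174 to 49115255 in the other 8. These sets also differed in reads with more than 1 alignment (4.64% to 4.99% against 2.36% to 3.22%) and in mitochondrial messenger RNA (0.726% to 0.947% against 2.31% to 3.51%). The libraries labelled OVCAR3-DDP went against their label, and are called the OVCAR3-DDP-labelled libraries here. The epithelial keratin KRT7 stood at 1006 CPM (counts scaled to a total of 1000000 assigned counts) in shNC, 0.246 CPM in the OVCAR3-DDP-labelled libraries and 1083 CPM in parental OVCAR3. The adhesion receptor CD44 had 0 counts in the OVCAR3-DDP-labelled libraries, whereas the neural kinesin KIF1A stood at 214 CPM there and at 0 in parental OVCAR3. Some markers went the other way. The ovarian marker WT1 stood at 19.0 CPM in the OVCAR3-DDP-labelled libraries and at 0 in parental OVCAR3, and the neural marker INA at 0.131 and 1.59 CPM. In the A2780 line, too, KRT7 had 0 counts in parental cells and KIF1A stood at 166 CPM in A2780-DDP. Summed over 11 ovarian epithelial markers, levels were 539 to 575 CPM in the OVCAR3-DDP-labelled libraries and 4400 to 4791 CPM in parental OVCAR3. Each result that rests on these libraries is therefore a statement about libraries with that label. ADAR, the targeted gene, stood at 289 and 254 CPM with sh1 and at 116 and 114 CPM with sh2, against 447 and 399 CPM in shNC. A gene is called here where edgeR's adjusted p over all genes tested lies under 0.05. The fall of ADAR was called with sh1 (log2 −0.71) and with sh2 (log2 −1.99), so the ADAR counts went the way the labels say. In all 7 groups markers of leukocytes summed to 1.16 to 6.91 CPM and markers of endothelium to 0.0870 to 2.87 CPM, and the T cell marker CD3E had 0 counts.

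Effector messenger RNA was present in every group, at levels that depended on the group and the gene. The 41 effectors summed to 3335 to 3377 CPM with sh1, 3236 to 3362 CPM with sh2 and 3041 to 3068 CPM in shNC. Their sum was 1613 to 1668 CPM in the OVCAR3-DDP-labelled libraries and 1998 to 2086 CPM in parental OVCAR3, and 2434 to 2540 CPM in A2780-DDP and 3022 to 3102 CPM in parental A2780. Sums of this kind are led by a few genes. Per kilobase of exon, ISG15, a ubiquitin-like protein that is joined to other proteins, led with 1055 CPM per kb in sh1, 1007 in sh2 and 1002 in shNC. The next levels were 124, 116 and 151 CPM per kb in sh1, sh2 and shNC, of IFITM3, which blocks the fusion of viral envelopes with cell membranes. In parental A2780 the leading level was instead the 352 CPM per kb of BST2, tetherin, which holds budding virions at the cell surface. Of the 41 effectors, 34 reached 10 CPM in parental A2780 and 1 lay under 1 CPM. In the OVCAR3-DDP-labelled libraries 24 reached 10 CPM and 11 lay under 1 CPM, and 4 of these, MX1, MX2, PARP14 and RTP4, had 0 counts.

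Over the 7 group means, 20 effectors were highest in parental A2780, 11 in sh1 or sh2, and 1 in the OVCAR3-DDP-labelled libraries. In bulk RNA, fewer cells that express a gene and less of its RNA per cell cannot be told apart, and this holds for every level given here.

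**Figure D1:**
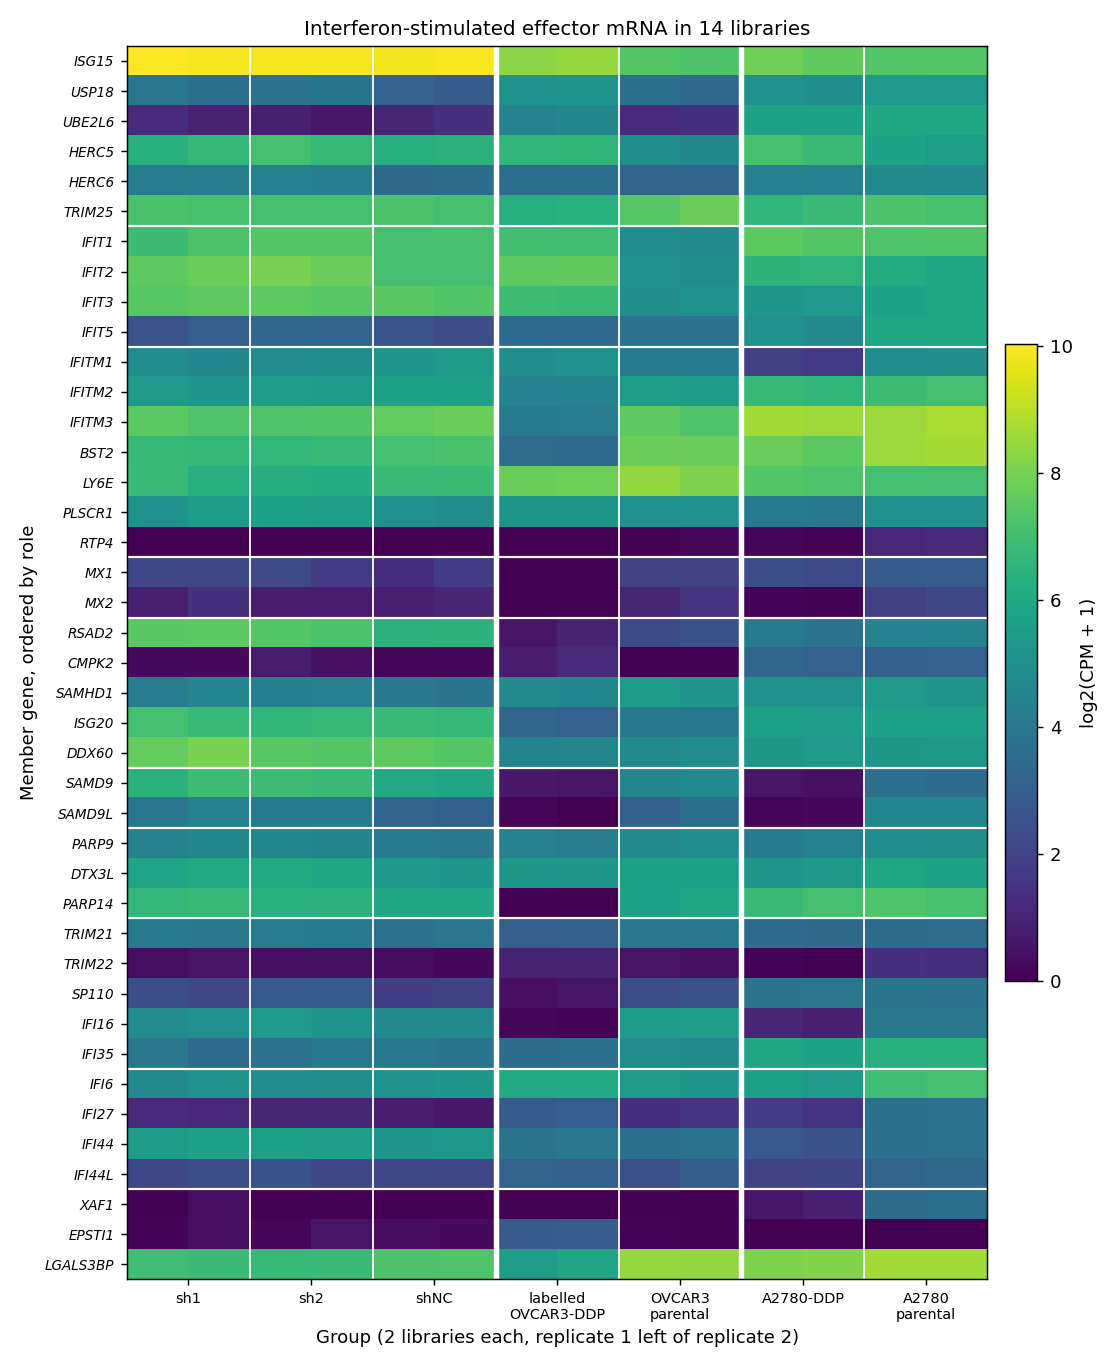
Levels of the 41 effectors (rows, grouped by role) in all 14 libraries (columns), as log2(CPM + 1), with replicate 1 left of replicate 2 in each group. ISG15 is brightest in the 6 hairpin libraries, and the dark cells of the OVCAR3-DDP-labelled libraries include the 4 effectors at 0 counts there, MX1, MX2, PARP14 and RTP4.

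The knockdown comparison asked which effectors moved with ADAR1, as the mean of sh1 and sh2 against shNC. Higher effectors included the nucleotide-modifying RSAD2, SAMD9 and its relative SAMD9L, the ISG15-removing USP18, IFIT2, DTX3L and PARP14, by log2 0.53 to 0.93. Lower effectors were IFITM1, IFITM2, IFITM3, BST2 and LY6E of the membrane group and the secreted LGALS3BP, by log2 changes of −0.42 to −0.62. ISG15 itself and 3 of the 4 IFIT genes were not called. Of the 41 effectors, 36 passed the filter on low counts, and CMPK2, XAF1, EPSTI1, TRIM22 and RTP4 did not. In edgeR's fit of the 6 hairpin libraries, 10 of the 36 were higher and 6 lower (44.4% called), against 11.9% of all 19044 genes tested, of which 5.94% were higher and 5.98% lower. The median log2 change was 0.21 over the 36 and 0.00 over all genes. This count leaned on single libraries. It was 4 of 39 (10.3%, with 1.62% of all genes called) without shNC replicate 2, where RSAD2, SAMD9L, IFIT2 and HERC6 were called. It was 7 of 38 (18.4%, with 1.69% of all genes) without shNC replicate 1 and 25 of 38 (65.8%, with 31.5% of all genes) without sh1 replicate 1. Called without each single library in turn were RSAD2, SAMD9L and IFIT2 alone. In these fits the lone library of a group was taken to spread as the rest do. Whether the libraries of compared groups overlap was not counted over all genes, so remarks on overlap below add nothing to the calls.

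Among genes of nucleotide and RNA metabolism, 1 of 4 tested was higher. RSAD2, viperin, makes a nucleotide that stops viral RNA chains, and its level was 175 and 178 CPM with sh1 and 165 and 143 CPM with sh2, against 85.5 and 87.7 CPM in shNC. All 4 knockdown libraries lay above both shNC libraries (log2 0.84, SE 0.10, edgeR adjusted p = 8.68e-05). SAMHD1, which breaks down the building blocks of DNA, stood at 17.8 and 22.97 CPM with sh1 and 18.9 and 19.8 CPM with sh2, against 15.6 and 13.6 CPM in shNC, and was not called (log2 0.35, SE 0.14, edgeR adjusted p = 0.105). The exonuclease ISG20 (−0.05) and the helicase DDX60 (0.07) were not called either, with log2 changes near 0. The dynamin-like proteins MX1 and MX2, which block viral nucleocapsids, were low throughout. MX1 had 3.45 and 3.48 CPM with sh1 and 3.67 and 2.45 CPM with sh2, against 1.48 and 2.35 CPM in shNC (log2 0.67, SE 0.27, edgeR adjusted p = 0.11).

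Both members of the SAMD9 family, which restrict poxviruses and cell growth, were higher. SAMD9 stood at 85.1 and 118 CPM with sh1 and 119 and 111 CPM with sh2, against 65.9 and 59.2 CPM in shNC (log2 0.70, SE 0.12, edgeR adjusted p = 0.0017). SAMD9L stood at 14.4 and 19.8 CPM with sh1 and 16.01 and 16.1 CPM with sh2, against 8.69 and 7.57 CPM in shNC (log2 0.93, SE 0.16, edgeR adjusted p = 0.00132). For either gene the knockdown and shNC libraries did not overlap. In the ADP-ribosylation group 2 of 3 were higher. PARP14, which attaches single ADP-ribose units to proteins, had 99.05 and 104 CPM with sh1 and 84.8 and 86.3 CPM with sh2, against 62.2 and 58.7 CPM in shNC (log2 0.53, SE 0.10, edgeR adjusted p = 0.00328). DTX3L, a ubiquitin ligase that works as a pair with PARP9, had 56.6 and 67.2 CPM with sh1 and 67.1 and 59.2 CPM with sh2, against 40.2 and 37.8 CPM in shNC (log2 0.59, SE 0.12, edgeR adjusted p = 0.00365). PARP9, the neighbour that shares its promoter window, missed the threshold (log2 0.41, SE 0.13, edgeR adjusted p = 0.052). Its levels were 20.1 and 24.1 CPM with sh1 and 23.1 and 21.5 CPM with sh2, against 16.5 and 14.96 CPM in shNC. These values did not overlap, which does not stand in for a call, since overlap was not counted over all genes.

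In the ISG15 system 2 of 6 were higher and 0 lower. ISG15 had 1044 and 942 CPM with sh1 and 949 and 946 CPM with sh2, against 922 and 965 CPM in shNC, and these values overlapped (log2 −0.05, SE 0.09, edgeR adjusted p = 0.746). USP18, which strips ISG15 from proteins and damps the interferon receptor, had 14.4 and 11.3 CPM with sh1 and 12.9 and 13.8 CPM with sh2, against 7.93 and 6.09 CPM in shNC (log2 0.81, SE 0.17, edgeR adjusted p = 0.00476). HERC6, whose mouse counterpart attaches ISG15, had 18.1 and 17.4 CPM with sh1 and 20.4 and 18.6 CPM with sh2, against 10.1 and 10.53 CPM in shNC (log2 0.76, SE 0.14, edgeR adjusted p = 0.00223). The knockdown libraries of USP18 and of HERC6 all lay above shNC. HERC5, the main human ligase for ISG15, was not called (log2 0.22, SE 0.12, edgeR adjusted p = 0.234), nor were its conjugating enzyme UBE2L6 (−0.65) and the RIG-I activating ligase TRIM25 (−0.16), given as log2 changes. About 23.4% of the 50-base stretches of USP18 also occur elsewhere, in USP41 among other places, so its counts are less certain.

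Of the 4 IFIT genes, whose proteins bind viral RNA, 1 was higher. IFIT2 had 188 and 218 CPM with sh1 and 259 and 217 CPM with sh2, against 134 and 135 CPM in shNC (log2 0.61, SE 0.11, edgeR adjusted p = 0.00137). Its neighbours did not follow it past the threshold. IFIT3 had 170.5 and 185 CPM with sh1 and 186 and 169 CPM with sh2, against 175 and 156 CPM in shNC (log2 0.01, SE 0.10, edgeR adjusted p = 0.959). IFIT1 (log2 0.08, SE 0.11, edgeR adjusted p = 0.678) and IFIT5 (log2 0.57, SE 0.19, edgeR adjusted p = 0.059) were not called. Among nuclear and TRIM proteins 1 of 4 tested was higher, the nuclear body protein SP110, at 4.25 and 3.44 CPM with sh1 and 5.78 and 6.09 CPM with sh2, against 2.57 and 2.697 CPM in shNC (log2 0.77, SE 0.21, edgeR adjusted p = 0.025). None of IFI6, IFI27, IFI44 and IFI44L was called (edgeR adjusted p = 0.0681 to 0.810).

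The membrane group ran the other way, with 1 of 6 tested higher and 5 lower. IFITM1 had 28.7 and 23.9 CPM with sh1 and 27.4 and 31.2 CPM with sh2, against 37.7 and 42.7 CPM in shNC (log2 −0.62, SE 0.12, edgeR adjusted p = 0.00346). BST2 had 105 and 100.3 CPM with sh1 and 98.5 and 106 CPM with sh2, against 129 and 143 CPM in shNC (log2 −0.50, SE 0.10, edgeR adjusted p = 0.00377). All 4 knockdown libraries lay below both shNC libraries for either gene. IFITM2 (−0.42, SE 0.11), IFITM3 (−0.43, SE 0.10) and the surface protein LY6E (−0.50, SE 0.11) were lower too, given as log2 changes. Exons of IFITM1 and IFITM2 overlap on 1 strand, and 17.4% to 34.1% of the 50-base stretches of the IFITM genes occur elsewhere, so the counting could have moved reads between them. LGALS3BP, a secreted glycoprotein, had 122 and 115 CPM with sh1 and 105 and 115 CPM with sh2, against 149 and 153 CPM in shNC (log2 −0.49, SE 0.10, edgeR adjusted p = 0.00346). The exception was PLSCR1, a phospholipid scramblase, with 34.95 and 45.00 CPM with sh1 and 52.2 and 48.9 CPM with sh2, against 33.8 and 30.1 CPM in shNC (log2 0.40, SE 0.12, edgeR adjusted p = 0.0397). Some epithelial markers fell in the same libraries, with the folate receptor FOLR1 at log2 −0.72 and MSLN at −0.56. Of the 9 epithelial markers tested 6 were called lower and none higher, against 5.98% and 5.94% of all genes. The surface marker EPCAM was not lower, with means of 18.8 CPM with sh1 and 17.3 CPM with sh2, against 15.2 CPM in shNC. All 11 listed markers summed to 4554 to 4772 CPM with sh1 and 4814 to 4828 CPM with sh2, against 5507 to 5833 CPM in shNC. The part of these markers in the lower effectors was not tested.

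**Figure D2:**
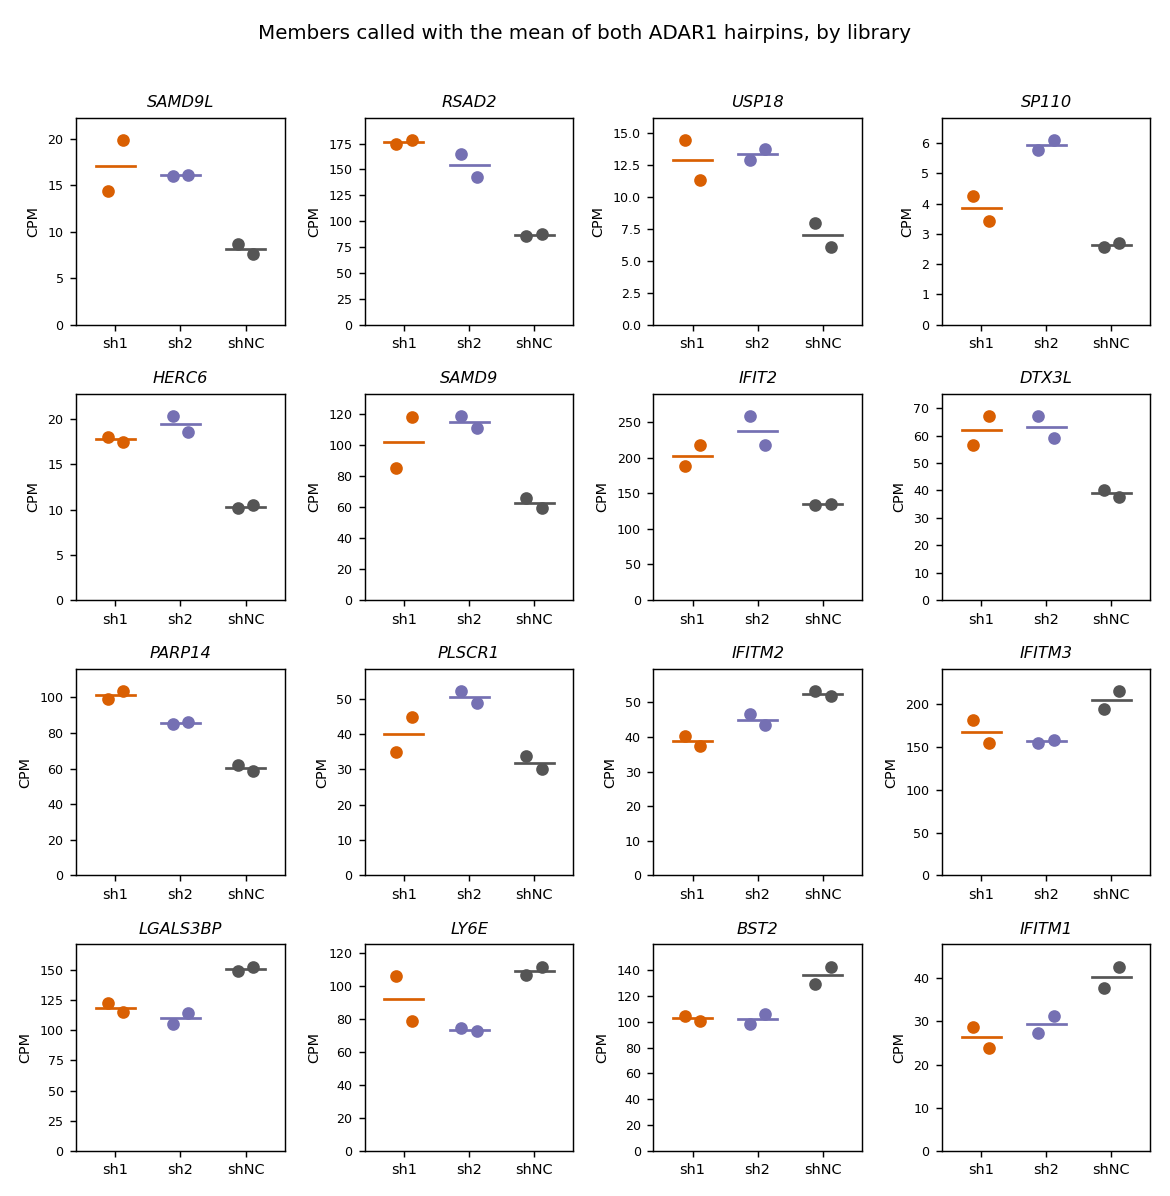
CPM of the 16 effectors called with the mean of both ADAR1 hairpins, in sh1, sh2 and shNC. Points are libraries and bars group means (n = 2). In each of the 16 panels the 4 knockdown libraries lie on one side of both shNC libraries. The panels were chosen for their call, so this adds nothing to the calls, and overlap was not counted over all genes.

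Each hairpin was also read alone, against the same shNC libraries, so their results are not independent of each other. With sh1, 8 of 36 were higher and 4 lower, against 3.81% of all genes called (1.96% higher and 1.85% lower). With sh2, 12 were higher and 5 lower, against 14.3% of all genes (7.23% higher and 7.04% lower). Without shNC replicate 1 the sh1 count was 4 (0.812% of all genes called) and the sh2 count 10 (3.39%). Without shNC replicate 2 they were 1 for sh1 (0.442%) and 6 for sh2 (3.56%). The sh1 count was 20 without sh1 replicate 1, where 22.5% of all genes were called, and the sh2 count was 6 without sh2 replicate 1 (1.51%). RSAD2 changed by log2 0.95 with sh1 and 0.73 with sh2, SAMD9L by 0.99 with sh1 and 0.88 with sh2, and PARP14 by 0.67 with sh1 and 0.40 with sh2. BST2 changed by log2 −0.48 with sh1 and −0.52 with sh2, and LGALS3BP by −0.42 with sh1 and −0.57 with sh2. The fit takes the spread from all 6 hairpin libraries. With only sh1 and shNC fitted, 8 effectors were higher and 1 lower (445 of all 18453 genes called). BST2, LGALS3BP and IFITM2 then lost their sh1 call. With only sh2 and shNC fitted, 16 were higher and 8 lower (5874 of all 18480 genes called). Calls that sh2 gave and sh1 did not were SP110 (log2 1.06 with sh2 and 0.47 with sh1), IFIT5 (0.83 with sh2 and 0.30 with sh1) and LY6E (−0.68 with sh2 and −0.32 with sh1), together with PLSCR1, IFI16 and IFITM3. IFITM2 was called with sh1 only (log2 −0.51, and −0.33 with sh2).

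Set directly against each other, sh2 and sh1 gave no effector call in edgeR (0 of 36, with 10 at an unadjusted p under 0.05 and 1.92% of all genes called), while ADAR itself was lower with sh2 by log2 −1.27. The lowest adjusted p belonged to DDX60, which had 177 and 160.4 CPM with sh2 and 199.9 and 254 CPM with sh1 (log2 −0.45, SE 0.12, edgeR adjusted p = 0.0591). DESeq2's Wald test called DDX60 and no other effector. Without sh1 replicate 2 the count was 11, with 21.5% of all genes called.

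**Figure D3:**
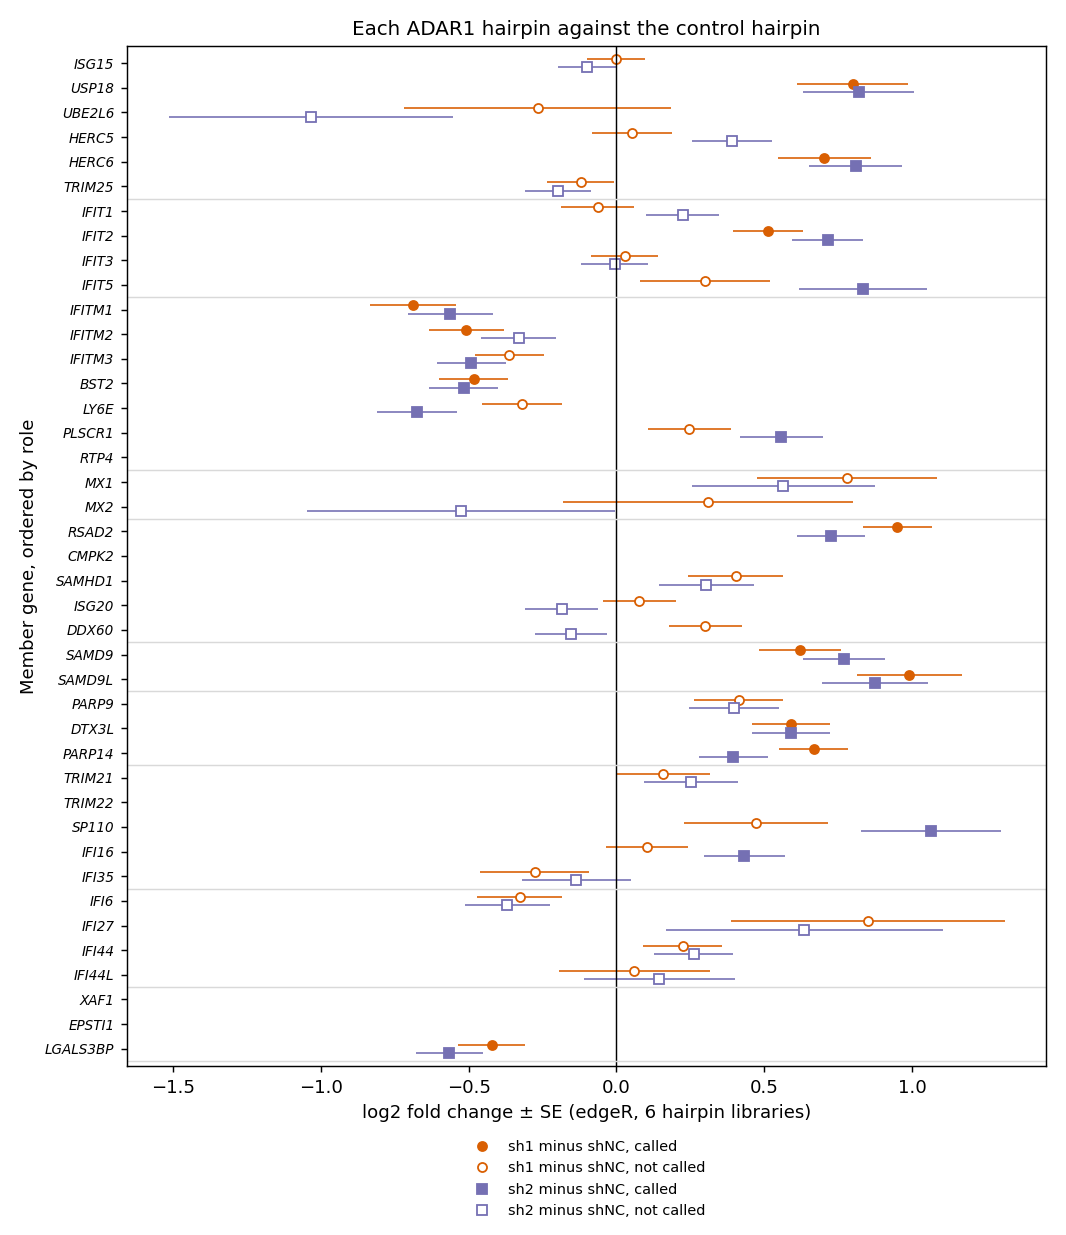
Fitted log2 fold change with its standard error of the 36 effectors tested, for sh1 minus shNC (circles) and sh2 minus shNC (squares), with filled symbols for calls. RSAD2 and SAMD9L lie at the right in either comparison, and IFITM1, BST2 and LGALS3BP at the left. The rows of RTP4, CMPK2, TRIM22, XAF1 and EPSTI1, which were not tested, are empty.

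Of 43 other genes of the interferon pathway, 35 were tested. With the hairpins 7 were higher and 1 lower, against 5.94% and 5.98% of all genes. Of the 7 sensors tested 4 were higher and 1 lower. IFIH1 had 66.8 and 72.6 CPM with sh1 and 81.7 and 67.5 CPM with sh2, against 34.2 and 35.98 CPM in shNC (log2 0.95, SE 0.12, edgeR adjusted p = 9.39e-05). CGAS, which senses DNA in the cytosol, was higher (log2 1.01, SE 0.15, edgeR adjusted p = 0.000541), as were DHX58 (0.70) and EIF2AK2 (0.41), on the log2 scale. MAVS, the adaptor of the RNA sensors, was lower (log2 −0.50, SE 0.10, edgeR adjusted p = 0.00364). The transcription factor IRF1 (0.68, SE 0.11), GBP5 (1.25, SE 0.27) and the type III interferon IFNL1 (0.82, SE 0.19) were higher. IFNL1 stood at 11.3 and 7.48 CPM with sh1 and 13.95 and 10.4 CPM with sh2, against 5.65 and 5.74 CPM in shNC. None of the 5 genes of the OAS group and none of the 6 receptor genes was called, and IFNA1, IFNK and IFNG had 0 counts in the 6 hairpin libraries.

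The A2780 comparison asked how the effectors differ between the cisplatin-resistant derivative and its parent. Most effectors called were lower in A2780-DDP. SAMD9L, SAMD9, XAF1, IFI16 and IFITM1 were lower, by log2 changes of −3.52 to −7.41, and MX2, TRIM22 and RTP4, lower too, had 3, 2 and 6 counts there. HERC5, IFIT2 and ISG15 were higher, by log2 1.33, 0.43 and 0.37. In edgeR's fit of the 8 libraries without a hairpin, 3 of 41 were higher and 25 lower (68.3% called), against 35.3% of all 23031 genes, 18.0% higher and 17.3% lower. The median log2 change was −0.49 over the 41 and 0.00 over all genes. Without each single library in turn 21 of the 28 calls held, and HERC6, IFIT3, IFITM2, ISG15, MX1, TRIM25 and USP18 were lost at least once. The largest adjusted p of ISG15 was 0.133 in edgeR, without A2780-DDP replicate 1 or either parental A2780 library. The call of MX1 was lost in 12 settings and that of IFITM2 in 11, for both genes also with DESeq2's size factors and with its Wald test. Other measures moved with the same groups. The 7 neural markers summed to 339 to 392 CPM in A2780-DDP and 139 to 140.2 CPM in parental A2780, and the 5 fibroblast markers to 33.6 to 34.8 CPM in A2780-DDP and 87.1 to 92.03 CPM in parental A2780. The fibroblast markers did not move together. By mean CPM COL1A1, PDGFRB and COL1A2 (7.91 CPM in A2780-DDP and 61.6 CPM in parental A2780) were lower in A2780-DDP, and DCN and LUM higher. Mitochondrial messenger RNA was 2.31% to 2.55% in A2780-DDP and 3.40% to 3.51% in parental A2780. Their part in the effector changes was not tested.

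SAMD9 had 0.464 and 0.366 CPM in A2780-DDP, against 11.6 and 10.6 CPM in parental A2780 (log2 −4.72, SE 0.23, edgeR adjusted p = 5.17e-09). SAMD9L had 0.116 and 0.152 CPM in A2780-DDP, against 23.7 and 23.4 CPM in parental A2780 (log2 −7.41, SE 0.37, edgeR adjusted p = 6.12e-09). Both A2780-DDP libraries lay far below both parental ones for either gene. In the ADP-ribosylation group PARP9 (−0.69) and DTX3L (−0.59) were lower on the log2 scale, and PARP14 was not called, at 106 and 134 CPM in A2780-DDP, against 153 and 139 CPM in parental A2780 (log2 −0.27, SE 0.12, edgeR adjusted p = 0.0927). IFI16, a DNA-binding protein of the nucleus, had 1.10 and 0.854 CPM in A2780-DDP, against 15.6 and 15.2 CPM in parental A2780 (log2 −3.96, SE 0.17, edgeR adjusted p = 1.8e-09). XAF1, which promotes cell death, had 0.493 and 0.823 CPM in A2780-DDP, against 10.6 and 11.2 CPM in parental A2780 (log2 −4.04, SE 0.32, edgeR adjusted p = 5.03e-07). Exons of the antisense gene PRAL cover 38.3% of XAF1, and the strand setting of the counts is not given in the sources used here, so reads of both genes cannot be told apart. MX2 had 3 counts in A2780-DDP and 196 in parental A2780, 68.8-fold lower (95% counting interval 23.2 to 337). TRIM22 had 2 counts in A2780-DDP and 100 in parental A2780, 52.7-fold lower (95% counting interval 14.2 to 441).

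The membrane group divided in A2780, with 5 of 7 lower and 0 higher. IFITM1 had 2.78 and 2.26 CPM in A2780-DDP, against 28.1 and 30.1 CPM in parental A2780 (log2 −3.52, SE 0.15, edgeR adjusted p = 1.56e-09). Its neighbour IFITM3 had 395 and 378 CPM in A2780-DDP, against 365 and 426 CPM in parental A2780, with overlapping values and no call (log2 −0.02, SE 0.12, edgeR adjusted p = 0.925). BST2 had 214 and 182 CPM in A2780-DDP, against 381 and 406 CPM in parental A2780 (log2 −0.98, SE 0.10, edgeR adjusted p = 6.33e-06). BST2 and PLSCR1 (−1.01, SE 0.10, log2) fell by a similar fold, and LY6E was not called (0.28, log2). All 4 genes of the IFI6, IFI27 and IFI44 group were lower. IFI27, a small membrane protein, had 2.41 and 1.83 CPM in A2780-DDP, against 12.2 and 12.5 CPM in parental A2780 (log2 −2.53, SE 0.21, edgeR adjusted p = 1.01e-06). IFI6, which protects the endoplasmic reticulum during flavivirus infection, had 50.1 and 41.8 CPM in A2780-DDP, against 124 and 133 CPM in parental A2780 (log2 −1.47, SE 0.11, edgeR adjusted p = 3.63e-07). IFI44L (−1.53, SE 0.22) and IFI44 (−1.28, SE 0.16) were lower by comparable log2 changes.

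HERC5 had the largest change of the higher effectors, at 137 and 113 CPM in A2780-DDP, against 53.6 and 46.9 CPM in parental A2780 (log2 1.33, SE 0.13, edgeR adjusted p = 4.59e-06). In the same ISG15 system HERC6 (−0.39), USP18 (−0.36) and TRIM25 (−0.45) were lower on the log2 scale, and UBE2L6 was not called. ISG15 had 229.6 and 191 CPM in A2780-DDP, against 163 and 165 CPM in parental A2780 (log2 0.37, SE 0.11, edgeR adjusted p = 0.0187). The IFIT genes moved both ways. IFIT2 had 89.6 and 90.7 CPM in A2780-DDP, against 70.4 and 64.1 CPM in parental A2780 (log2 0.43, SE 0.09, edgeR adjusted p = 0.00221). IFIT3 (−0.51) and IFIT5 (−1.05) were lower on the log2 scale, and IFIT1 was not called (0.16). None of the 5 genes of nucleotide and RNA metabolism was called (edgeR adjusted p = 0.0732 to 0.760). Of the other pathway genes tested, 8 of 39 were higher and 16 lower, against 18.0% and 17.3% of all genes. All 5 GBP genes were lower. GBP2, a guanylate-binding protein of host defence, had 0.232 and 0.610 CPM in A2780-DDP, against 84.6 and 92.6 CPM in parental A2780. The feedback inhibitors SOCS1 (2.08, SE 0.44) and SOCS3 (1.52, SE 0.10) were higher, as was IRF1 (0.91, SE 0.11), on the log2 scale.

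The OVCAR3-DDP-labelled libraries, set against parental OVCAR3, had effectors called in both directions, more of them lower than higher. PARP14, MX1, MX2 and RTP4 had 0 counts in the OVCAR3-DDP-labelled libraries, and IFI16, SAMD9, SAMD9L, BST2, SP110 and IFITM3 were lower there by log2 changes of −3.50 or beyond. UBE2L6, IFIT1, IFIT2, IFIT3, HERC5 and USP18 were higher, by log2 1.53 to 3.66. In edgeR's fit 13 of 41 were higher and 23 lower (87.8% called), against 68.5% of all 23031 genes, 33.4% higher and 35.2% lower. The share of effectors that were higher was thus no larger than that of all genes, and the share that were lower was larger. The median log2 change was −0.65 over the 41 and −0.03 over all genes. With upper-quartile scaling the all-gene median shifted by 0.10, and in the difference between lines by 0.11. Of the 36 calls 34 held without each single library in turn, and RTP4 and TRIM22 were lost at least once. These libraries differ from parental OVCAR3 in identity markers as well as in label, and the part of either in these effectors cannot be told apart.

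PARP14 had 0 counts in the OVCAR3-DDP-labelled libraries, against 53.1 and 59.00 CPM in parental OVCAR3, at least 1300-fold lower with a floor of 3 counts over the group. Its neighbours within the same stretch of chromosome 3 were lower too, by a smaller fold. DTX3L had 38.9 and 36.4 CPM in the OVCAR3-DDP-labelled libraries, against 50.5 and 49.96 CPM in parental OVCAR3 (log2 −0.59, SE 0.10, edgeR adjusted p = 0.000106). PARP9 had 19.5 and 17.3 CPM in the OVCAR3-DDP-labelled libraries, against 25.1 and 28.7 CPM in parental OVCAR3 (log2 −0.73, SE 0.13, edgeR adjusted p = 0.00017). Within this cluster PARP14 alone had 0 counts. MX1 was at least 64.7-fold and MX2 at least 34.9-fold lower by the same floor, and RTP4, a chaperone of receptors, at least 2.98-fold. RTP4 is a weak case, with 11 counts in parental OVCAR3. IFI16 had 5 counts over both OVCAR3-DDP-labelled libraries, against 42.7 and 47.3 CPM in parental OVCAR3 (log2 −9.38, SE 0.24, edgeR adjusted p = 2.65e-12). SAMD9 had 0.608 and 0.464 CPM in the OVCAR3-DDP-labelled libraries, against 22.8 and 26.96 CPM in parental OVCAR3 (log2 −5.70, SE 0.22, edgeR adjusted p = 6.86e-11). SAMD9L lies next to SAMD9 on chromosome 7 and was close to uncounted. It had 3 counts in the OVCAR3-DDP-labelled libraries and 831 in parental OVCAR3, 225-fold lower (95% counting interval 76.7 to 1093).

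BST2 had 10.9 and 10.4 CPM in the OVCAR3-DDP-labelled libraries, against 221 and 209.8 CPM in parental OVCAR3 (log2 −4.51, SE 0.12, edgeR adjusted p = 3.2e-12). IFITM3 had 16.4 and 17.8 CPM in the OVCAR3-DDP-labelled libraries, against 187 and 154 CPM in parental OVCAR3 (log2 −3.50, SE 0.13, edgeR adjusted p = 6.55e-11). IFITM1, next to it on chromosome 11, moved the other way. It had 29.01 and 32.3 CPM in the OVCAR3-DDP-labelled libraries, against 16.5 and 16.7 CPM in parental OVCAR3 (log2 0.71, SE 0.12, edgeR adjusted p = 0.000191). LGALS3BP (−2.87, SE 0.11), RSAD2 (−2.79, SE 0.28) and SP110 (−3.55, SE 0.24) were lower by larger log2 changes than TRIM25 (−1.44, SE 0.12) and TRIM21 (−1.27, SE 0.14), the cytosolic antibody receptor. Of the 13 higher effectors, 4 were of the ISG15 group and 3 of the IFIT group. UBE2L6 had 20.9 and 24.03 CPM in the OVCAR3-DDP-labelled libraries, against 1.45 and 1.67 CPM in parental OVCAR3 (log2 3.66, SE 0.14, edgeR adjusted p = 6.94e-11). IFIT2 had 187 and 191 CPM in the OVCAR3-DDP-labelled libraries, against 31.95 and 29.8 CPM in parental OVCAR3 (log2 2.44, SE 0.10, edgeR adjusted p = 9.67e-11). IFIT1 (1.98, SE 0.10) and IFIT3 (1.67, SE 0.10) were higher with it on the log2 scale, while IFIT5 was lower (−0.52, SE 0.12). EPSTI1, a protein of epithelial and stromal interaction, had 432 counts in the OVCAR3-DDP-labelled libraries and 3 in parental OVCAR3, 177-fold higher (95% counting interval 60.3 to 863), a call lost with DESeq2's Wald test (adjusted p = 0.173). CMPK2, a mitochondrial nucleotide kinase, was at least 28.7-fold higher against 0 counts in parental OVCAR3. Of the other pathway genes 13 of 39 were higher and 15 lower, shares near the 33.4% and 35.2% of all genes. All 5 GBP genes, CGAS (−8.14, SE 0.49) and OAS1 (−3.80, SE 0.19) were lower, on the log2 scale. IRF7 (4.78, SE 0.72), IFIH1 (1.56, SE 0.11) and RIGI (3.63, SE 0.35) were higher, on the same scale.

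Whether the lines differed in how the DDP label moved the effectors was tested as the difference between the 2 differences. Of 41 effectors, 16 had a more positive and 17 a more negative difference in OVCAR3 than in A2780 (80.5%), against 53.8% of all genes, 26.9% each way. Lower in both lines were 14 effectors, which are 60.9% of the 23 lower in OVCAR3 and 56.0% of the 25 lower in A2780. Since 25 of all 41 were lower in A2780, that share of the 23 is no larger than the share of all effectors. The 14 include MX1 and IFITM2, whose A2780 calls were lost in 12 and 11 settings. Among these 14 the difference between lines was called in 9 and not in SAMD9L (log2 −0.42, SE 0.91, edgeR adjusted p = 0.759), PARP9 (log2 −0.04, SE 0.18, edgeR adjusted p = 0.916), DTX3L (log2 −0.01, SE 0.14, edgeR adjusted p = 1), MX2 and RTP4. Of the 9, the call of SAMD9 was lost in 12 settings (adjusted p of up to 0.224 in edgeR, limma or DESeq2) and that of IFIT5 at least once. Higher in both were HERC5, IFIT2 and ISG15. Higher in OVCAR3 and lower in A2780 were 6 effectors, IFI6, IFI27, IFIT3, IFITM1, TRIM22 and USP18, each with a called difference between lines. For TRIM22 the OVCAR3 call was lost in some settings, with an adjusted p of up to 0.230 in edgeR or DESeq2, and 10.7% of TRIM22 overlaps OR56B1 on the same strand. No effector was lower in OVCAR3 and higher in A2780, where only 3 of 41 were higher at all. These pairs of calls were not counted over all genes, so they have no share to be set against. All 4 IFIT genes and all 4 of the IFI6, IFI27 and IFI44 group had the more positive difference in OVCAR3.

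**Figure D4:**
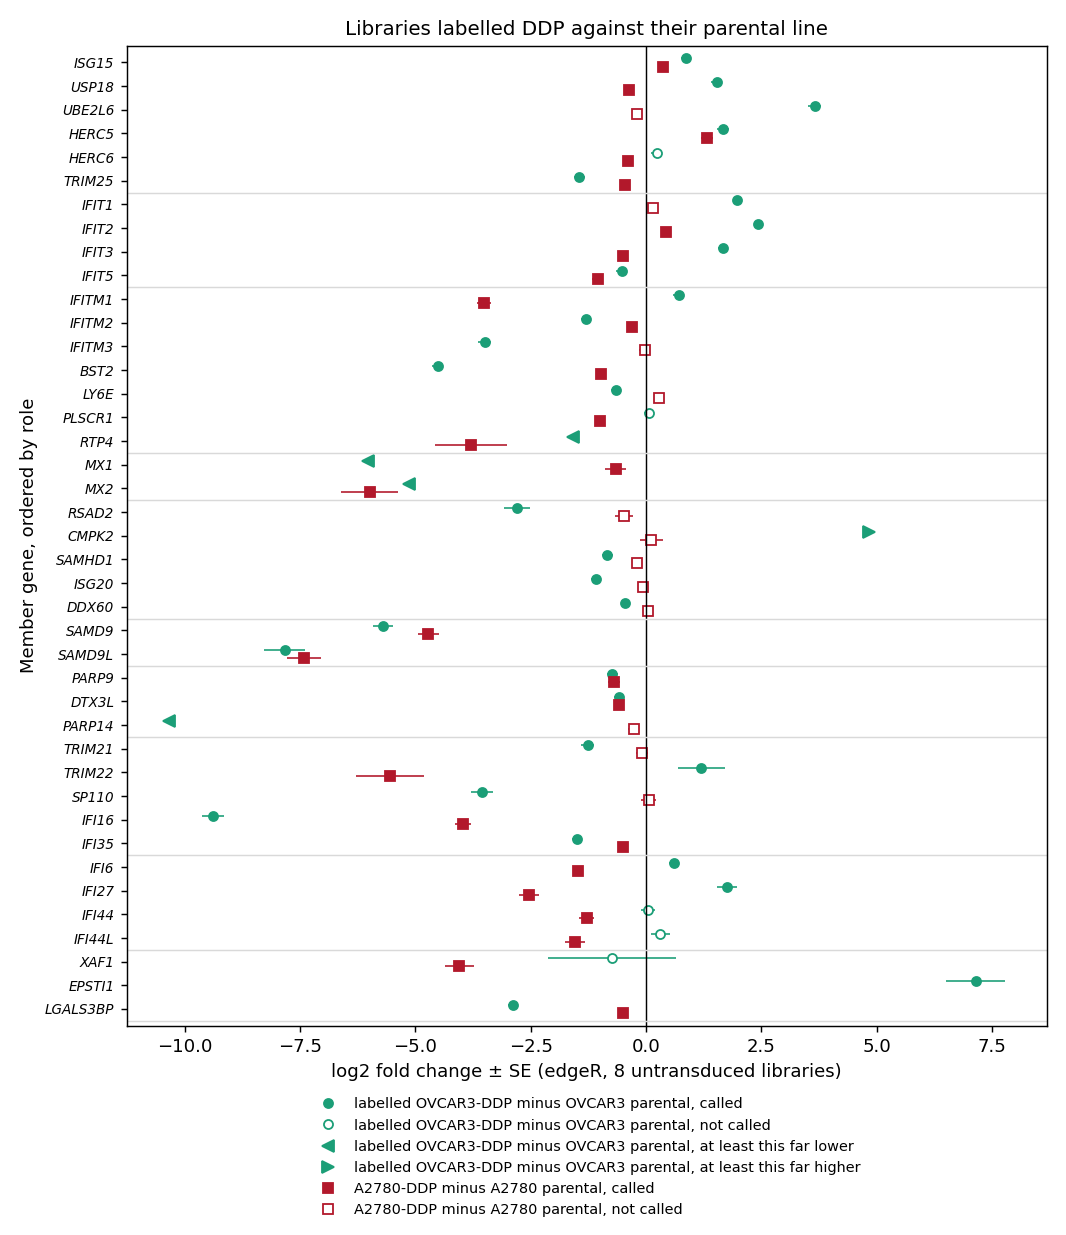
Fitted log2 fold change with its standard error of the effectors, for the OVCAR3-DDP-labelled libraries minus parental OVCAR3 (circles) and A2780-DDP minus parental A2780 (squares). Filled symbols are calls and triangles are bounds where 1 group had 0 counts. SAMD9 and SAMD9L lie far to the left in either line, whereas IFI27, IFI6 and IFITM1 lie right of 0 in OVCAR3 and left of it in A2780.

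The hairpin control shNC carries the OVCAR3-DDP label and keeps the epithelial markers of OVCAR3, so it was set against parental OVCAR3. RSAD2 was higher in shNC by log2 4.53 and ISG15 by 2.76. By group, 4 of 5 genes of nucleotide and RNA metabolism, 3 of 4 IFIT genes and 3 of 6 genes of the ISG15 group were higher, and 1 of each was lower. The 4 include CMPK2, which had only 5 counts in shNC and 0 in parental OVCAR3. LY6E, SAMHD1, IFIT5 and LGALS3BP were lower, by log2 changes of −0.99 to −1.31. In edgeR's fit of all 14 libraries 17 of 41 were higher and 11 lower (68.3% called), against 51.5% of all 24193 genes, 25.1% higher and 26.5% lower. The median log2 difference was −0.04 over the 41. Resistance, the hairpin vector and the set in which the libraries were made cannot be told apart in this comparison, since parental OVCAR3 has no hairpin library. Of the 28 calls 20 held without each single library in turn, and those lost at least once were CMPK2, EPSTI1, HERC6, IFITM2, IFITM3, PARP14, SP110 and USP18. The call of SP110 was lost in 15 settings, DESeq2's Wald test and limma-voom among them, and that of PARP14 in 9. PARP14 is the 1 call whose shNC and parental values overlapped, and overlap was not counted over all genes.

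RSAD2 had 85.5 and 87.7 CPM in shNC, against 3.85 and 4.66 CPM in parental OVCAR3 (log2 4.53, SE 0.17, edgeR adjusted p = 1.23e-16). ISG15 had 922 and 965 CPM in shNC, against 167 and 150.01 CPM in parental OVCAR3 (log2 2.76, SE 0.12, edgeR adjusted p = 1.44e-15). ISG20, an exonuclease that degrades viral RNA, had 109.5 and 103 CPM in shNC, against 15.8 and 15.5 CPM in parental OVCAR3 (log2 2.95, SE 0.13, edgeR adjusted p = 2.23e-15). The shNC libraries of these genes all lay well above parental OVCAR3. DDX60, a helicase that aids RNA sensing, had 183 and 166 CPM in shNC, against 25.6 and 28.9 CPM in parental OVCAR3 (log2 2.87, SE 0.12, edgeR adjusted p = 1.73e-15). IFIT3 had 175 and 156 CPM in shNC, against 30.3 and 34.5 CPM in parental OVCAR3 (log2 2.54, SE 0.12, edgeR adjusted p = 5.37e-15). Neither gene had a parental library near the shNC values. IFIT1 (2.45, SE 0.12), IFIT2 (2.31, SE 0.11), HERC5 (1.84, SE 0.14) and IFI44 (1.82, SE 0.14) were higher by log2 changes of the same order. SAMD9 (1.52, SE 0.14) was higher, whereas SAMD9L was not called (log2 −0.04, SE 0.21, edgeR adjusted p = 0.924). IFIT5, which binds uncapped RNA, went against its family, at 5.15 and 4.13 CPM in shNC, against 12.9 and 13.3 CPM in parental OVCAR3 (log2 −1.31, SE 0.17, edgeR adjusted p = 8.77e-07). LY6E had 106 and 112 CPM in shNC, against 339 and 272 CPM in parental OVCAR3 (log2 −1.30, SE 0.13, edgeR adjusted p = 1.34e-08). USP18, higher with the ADAR1 hairpins, was lower in shNC (log2 −0.42, SE 0.17, edgeR adjusted p = 0.0389), a call lost in 11 settings.

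Of the other pathway genes 19 of 39 were higher in shNC and 5 lower, against 25.1% and 26.5% of all genes. The higher genes included 4 of 5 of the OAS group. OASL had 284 and 275 CPM in shNC, against 70.4 and 81.01 CPM in parental OVCAR3 (log2 2.08, SE 0.11, edgeR adjusted p = 5.8e-14). RIGI (3.74, SE 0.37), IFIH1 (1.81, SE 0.13) and IFNL1 (4.63, SE 0.32) were higher on the log2 scale. IRF9, the DNA-binding subunit of the complex that acts on the ISRE, was lower, at 0.169 and 0.218 CPM in shNC, against 1.67 and 2.52 CPM in parental OVCAR3 (log2 −3.24, SE 0.49, edgeR adjusted p = 5.82e-06).

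**Figure D5:**
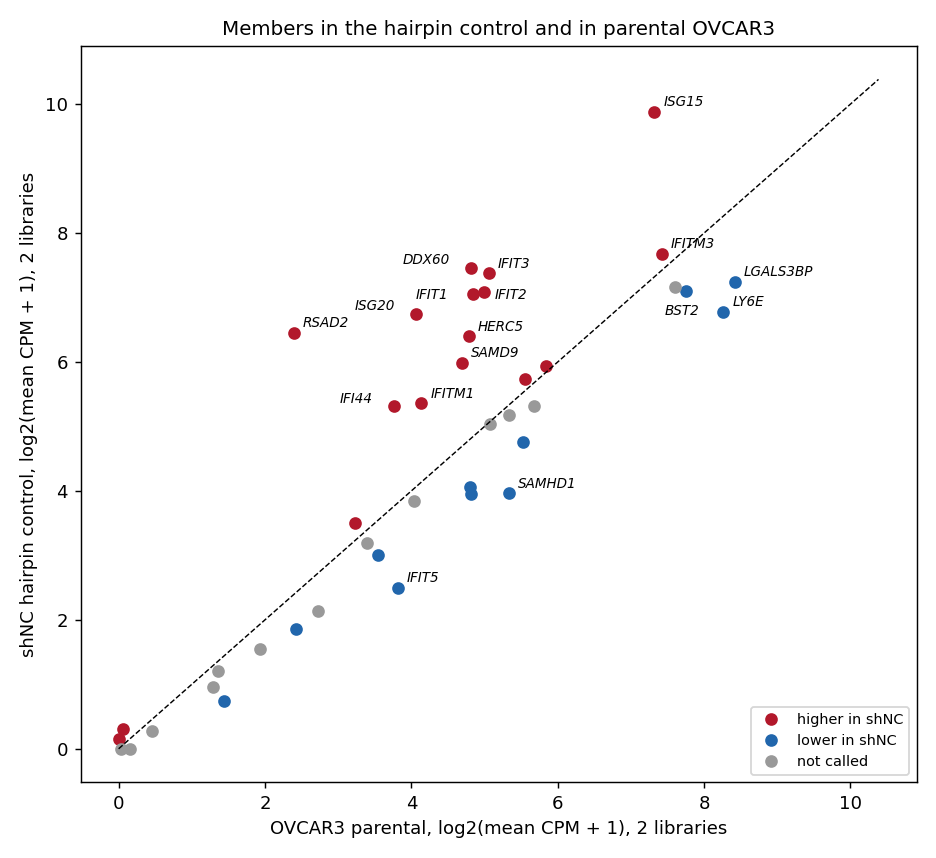
Mean level of each effector in shNC (vertical) against parental OVCAR3 (horizontal), as log2(mean CPM + 1) of 2 libraries per group, coloured by the edgeR call. RSAD2, ISG20, DDX60, ISG15 and the IFIT genes 1 to 3 lie above the dashed line of equal levels, and LY6E, SAMHD1 and IFIT5 lie below it.

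Against the OVCAR3-DDP-labelled libraries, whose label it shares, shNC had 23 of 41 effectors higher and 11 lower (82.9% called), against 69.7% of all genes, 32.9% higher and 36.8% lower. PARP14, MX1 and MX2, which had 0 counts in the OVCAR3-DDP-labelled libraries, stood at 62.2 and 58.7 CPM, 1.48 and 2.35 CPM and 0.802 and 1.09 CPM in shNC. IFI16, at 26.2 and 26.2 CPM, and SAMD9, at 65.9 and 59.2 CPM, were likewise counted in shNC. All of these lay far above the OVCAR3-DDP-labelled libraries. Among the 34 calls DTX3L alone had overlapping values, and overlap was not counted over all genes. UBE2L6 was high in the OVCAR3-DDP-labelled libraries alone of the OVCAR3 groups, with 1.10 and 1.52 CPM in shNC, against 20.9 and 24.03 CPM in the OVCAR3-DDP-labelled libraries (log2 −3.81, SE 0.21, edgeR adjusted p = 2.3e-14).

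The parental lines differed from each other as well. Of 41 effectors, 5 were higher and 28 lower in parental OVCAR3 than in parental A2780 (80.5%), against 66.0% of all genes, 32.3% higher and 33.7% lower. Higher in parental OVCAR3 were IFI16 (1.60, SE 0.13), LY6E (1.26, SE 0.11), SAMD9 (1.21, SE 0.15), TRIM21 (0.56, SE 0.13) and TRIM25 (0.49, SE 0.11), on the log2 scale. UBE2L6 had 1.45 and 1.67 CPM in parental OVCAR3, against 61.4 and 63.2 CPM in parental A2780 (log2 −5.26, SE 0.14, edgeR adjusted p = 2.95e-12). ISG15, by contrast, was not called, with 167 and 150.01 CPM in parental OVCAR3, against 163 and 165 CPM in parental A2780 (log2 0.00, SE 0.11, edgeR adjusted p = 1).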

How the data were processed

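Each library has 1 table of whole-number gene counts, as the authors deposited it. Tools named in the submitters' processing notes are STAR 2.7.8a, HTSeq 2.0.3, SAMtools and FastQC 0.11.9, with the build GRCh38.p13. Which annotation release was counted, and whether strand was used, is not given in the sources used here. The 5 summary lines of a table stayed out of the total over its 62757 genes. Coordinates and exon lengths came from GENCODE 29, promoters from RefSeq.

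CPM are counts scaled to a total of 1000000 assigned counts. Tests used the quasi-likelihood F-test of edgeR (TMM scaling, filterByExpr at a minimum count of 10, 1 mean per group), adjusted by Benjamini-Hochberg over all genes and called at 0.05. Fits held the 8 libraries without a hairpin (23031 genes, 4 residual degrees of freedom), the 6 hairpin libraries (19044, 3) or all 14 (24193, 7). CPM log2 ratios differ from fitted changes by the scaling, over effectors at 10 CPM by a median of 0.09 for the hairpin mean, 0.18 for the OVCAR3-DDP-labelled libraries, −0.01 for A2780-DDP, −0.19 for shNC minus parental OVCAR3 and −0.29 for shNC minus the OVCAR3-DDP-labelled libraries. SE are approximate. Folds against 0 counts use a floor of 3 counts over the group, and those with 1 to 3 counts a 95% counting interval, both for counting error only. Counts were simulated with 200 genes changed, drawn from genes with a mean of at least 5 CPM. All genes shared 1 spread and the rest were left unchanged. At 2-fold, 100% were called for the OVCAR3-DDP-labelled libraries (21743 genes) and the hairpin mean (18582 genes). For shNC minus parental OVCAR3 (22168 genes) it was 97.0%. At 1.5-fold the shares were 64.2%, 61.2% and 40.3%. These shares do not cover effectors under 5 CPM, genes of larger spread or comparisons in which most genes differ.

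The members and gene lists were chosen with earlier results of these data known. Full values were given to called effectors of the largest change that reached 10 CPM, at most 8 per direction and comparison, to effectors whose call differed between comparisons and to gene families. Alternatives were DESeq2 size factors and Wald test, upper-quartile scaling, limma-voom, other low-count filters, other sets of libraries, a replicate block and each library left out. Leaving out both OVCAR3-DDP-labelled libraries was chosen after seeing the data. Software was R 4.3.3, edgeR 4.0.16, limma 3.58.1, DESeq2 1.42.0, Python 3.11.15, numpy 2.4.6, pandas 2.3.3 and matplotlib 3.10.9.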

Additional observations from a re-analysis of the deposited data

Results flagged for a closer look

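These effectors had a called difference between the lines, tested as the OVCAR3 difference (OVCAR3-DDP-labelled libraries minus parental OVCAR3) minus the A2780 difference (A2780-DDP minus parental A2780) on the log2 scale in edgeR, and are the largest of each direction that reached 10 CPM. They rest on the OVCAR3-DDP-labelled libraries, whose identity markers go against the label, and what either contributed was not tested. More positive in OVCAR3 were IFI27 (4.30), IFITM1 (4.22), UBE2L6 (3.85), IFIT3 (2.17), IFI6 (2.08), IFIT2 (2.00), USP18 (1.90) and IFIT1 (1.82). IFI27 had 6.19 and 7.02 CPM in the OVCAR3-DDP-labelled libraries and 1.56 and 1.85 CPM in parental OVCAR3. In A2780 it had 2.41 and 1.83 CPM in A2780-DDP and 12.2 and 12.5 CPM in parental A2780. More negative in OVCAR3 were PARP14 (−13.76, a fitted value that depends on the prior count, since the OVCAR3-DDP-labelled libraries had 0 counts), IFI16 (−5.42), SP110 (−3.61), BST2 (−3.53), IFITM3 (−3.47), LGALS3BP (−2.38), RSAD2 (−2.31) and TRIM21 (−1.18). IFITM3 had 16.4 and 17.8 CPM in the OVCAR3-DDP-labelled libraries and 187 and 154 CPM in parental OVCAR3. In A2780 it had 395 and 378 CPM in A2780-DDP and 365 and 426 CPM in parental A2780.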

How the results depend on the processing

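No call of an effector turned its direction under any alternative run (effectors not called were not compared), and counts of called effectors stayed within 1.5 times the reported one except in the hairpin comparisons. Leaving out 1 library each, counts ran from 4 to 25 for the mean of sh1 and sh2, 1 to 20 for sh1, 6 to 24 for sh2 and 0 to 11 for sh2 minus sh1. The share of all genes called in these fits ran from 1.62% to 31.5%, 0.442% to 22.5%, 1.51% to 29.3% and 0.289% to 21.5% in the same comparisons. In the comparisons that hold neither sh1 nor sh2, the counts of called effectors stayed within the 1.5 times given above. For A2780-DDP more effectors were called in those of these fits that called more of all genes. For sh2 minus sh1 the count was 1 with DESeq2's Wald test, with all 14 libraries, with a mean of at least 5 CPM and with no low-count filter. Over single effectors 47 values outside the leave-one-out fits lost their call and 2029 did not change sides, and within those fits 166 lost it and 2012 did not. The cause was not tested. Fitting the compared groups alone gives the reported fit for the mean of the hairpins and was not run for it or for the difference between lines. Replicate numbers are shared by the groups, but nothing says that they pair libraries, and the deviations of same-numbered libraries correlated by −0.16 to 0.32 over 13044 genes. With the replicate number as a block the effectors called were 16 for the mean of the hairpins, 11 for sh1 and 16 for sh2. Calls lost with the block were TRIM22 in OVCAR3, MX1 in A2780, SAMD9 in the difference between lines, LGALS3BP with sh1, IFI16 with sh2 and SP110 in shNC minus parental OVCAR3. Effectors under 10 CPM rest on few counts, and intervals and floors cover counting error only.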
